A study of Mus musculus with 161 samples.

Results

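The common monocyte progenitor (cMoP) of mouse bone marrow is the committed precursor that divides and gives rise to monocytes. Of its single-cell libraries, 11 stood apart in how much of their signal came from mitochondrial genes. They were chosen by a measured value. Among the cMoP libraries that carry a flow cell in their label, the 11 with over 15% of their TPM in table rows starting with mt- form the high-mitochondrial libraries, out of 60 such libraries, 66 cMoP libraries and 161 libraries in all. The other 49 cMoP libraries with a flow cell are what they are set against. TPM expresses each transcript as its part of a total that is the same in every library.

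Both groups come from untreated C57BL/6 mice and carry the same labels: bone marrow cells negative for lineage markers and for CD135 (the receptor encoded by Flt3), and positive for CD117 (Kit), CD115 (Csf1r) and Ly6C. Progenitors were enriched with magnetic beads, sorted, and captured singly on the Fluidigm C1 microfluidic system, where each cell was lysed and its RNA reverse transcribed from an oligo(dT) primer. Only cells with good cDNA went on to sequencing, per the labels' protocols. No label names an animal or a chip, so each group counts as 1 sample of cells. No test, p-value or standard error is given, and every SD below describes the spread between libraries of 1 group.

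Mitochondrial messenger RNAs are transcribed from the small circular genome inside the organelle, carry short poly(A) tails and stay behind its membranes. Nuclear messenger RNAs are spread through the cytosol, while a few long noncoding RNAs stay in the nucleus. A high mitochondrial share is widely read in single-cell work as a sign of a damaged cell that has lost cytosolic RNA, although cells with much mitochondrial activity can show one too. The comparison addressed here is which nuclear transcripts were kept or lost in such libraries.

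The mitochondrial share chose the libraries and is given as a description. It ran from 16.6% to 47.7% of TPM in the high-mitochondrial libraries with a median of 27.8%, against 0.777% to 10.4% with a median of 6.29% in the other cMoP libraries. The library just inside the threshold, cMoP 66, had 16.6% and the next one, cMoP 46, had 21.5%. Just outside it, cMoP 17 had 10.4% and cMoP 52 had 9.90%. None of the 60 libraries lay between 10.4% and 16.6%. In the bone marrow and blood monocytes of the series the highest shares were 9.47% and 9.80%.

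All 60 libraries ran on 1 lane. The 11 high-mitochondrial libraries used 9 of the 11 first indexes and 5 of the 8 second indexes, with at most 4 on 1 second index. No index pair was shared between libraries, no columns were identical, and the highest Pearson correlation across genes between any pair of the 60 was 0.74. Doublets were not called. The number of genes above 1 TPM ran from 4881 to 7682 with a median of 5602 in the high-mitochondrial libraries, against 4465 to 7603 with a median of 6743 in the other libraries. cMoP 66 stood apart within its group: it had the most genes of all 60 libraries and a ribosomal protein share of 11.3%, inside the range of the other libraries.

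Before any comparison the mt- rows were removed and each library was rescaled to the same total, so that the mitochondrial share did not lower nuclear values by construction. All levels below are rescaled TPM. A difference is the mean of log2(rescaled TPM + 1) over the high-mitochondrial libraries minus that over the other libraries, so a negative value means lower in the high-mitochondrial libraries, and the added 1 understates differences of low genes. The table lists genes at exactly 0 that every cell uses. Rps12, a ribosomal protein gene, was listed at 0 in all 11 high-mitochondrial libraries and in 13 of the 49 other libraries. A 0 is therefore given as listed at 0, and levels are given as the lowest, the median and the highest library.

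Removing the mt- rows did not remove all mitochondrial sequence. The mouse nuclear genome holds a stretch of chromosome 1 that was copied from the mitochondrial genome, annotated as unprocessed pseudogenes with predicted-gene names (Gm plus a number). Rows were searched if they matched 1 GENCODE vM21 gene and had a Gm name or a protein-coding, long noncoding or pseudogene type. Of these, 9 shared at least 50% of their 25-base words with mitochondrial protein or ribosomal RNA genes, 7 on chromosome 1 and 2 on chromosome 2. Transfer RNA genes were not compared. Of these pairs 3 are shown because most or all reads from the copy fit both members. Capitals mark a base at which the pair differs within the printed window, which starts at base 1 of each GENCODE vM21 transcript (build GRCm38) and ends at base 60.
Gm10925: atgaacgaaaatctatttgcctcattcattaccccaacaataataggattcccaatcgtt
mt-Atp6: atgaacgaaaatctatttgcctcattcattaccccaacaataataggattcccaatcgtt
Gm28437: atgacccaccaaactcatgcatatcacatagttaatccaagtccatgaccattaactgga
mt-Co3: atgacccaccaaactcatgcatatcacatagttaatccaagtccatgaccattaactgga
Gm28438: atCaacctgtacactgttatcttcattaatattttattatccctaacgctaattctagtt
mt-Nd3: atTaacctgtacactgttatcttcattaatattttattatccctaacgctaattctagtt

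Gm10925 (chr1:24613974-24614651, minus strand) was identical to mt-Atp6, a subunit gene of ATP synthase, over all 678 of its bases. Gm28437 (chr1:24613189-24613971, minus strand) was identical to mt-Co3, a cytochrome c oxidase gene, over 783 bases. Gm28438 (chr1:24612775-24613119, minus strand) differed from mt-Nd3, a complex I gene, at 1 of 345 bases, an identity of 99.7%. How the deposited estimates divide reads within such pairs is uncertain for every library.

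Together the 9 copy rows took 6.05% to 34.2% of rescaled TPM in the high-mitochondrial libraries with a median of 14.2%, against 0.405% to 4.54% with a median of 1.99% in the other libraries. The groups did not overlap, as a description only, since these rows hold the sequence that chose the libraries. Of the summed signal of mt-Co3 and Gm28437, a median of 93.3% was listed in the nuclear copy in the high-mitochondrial libraries and 99.98% in the other libraries. Of mt-Co1 and its copy Gm29216 the copy held 49.5% and 47.2%, and of mt-Atp6 and Gm10925 it held 3.58% and 0.0107%. The sum over mt- rows therefore leaves out most of the mt-Co3 signal in both groups. With the copy rows counted as mitochondrial, the share was 21.7% to 61.2% in the high-mitochondrial libraries against 1.18% to 14.5% in the other libraries, so the same 11 libraries lay above 15%.

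**Figure D1:**
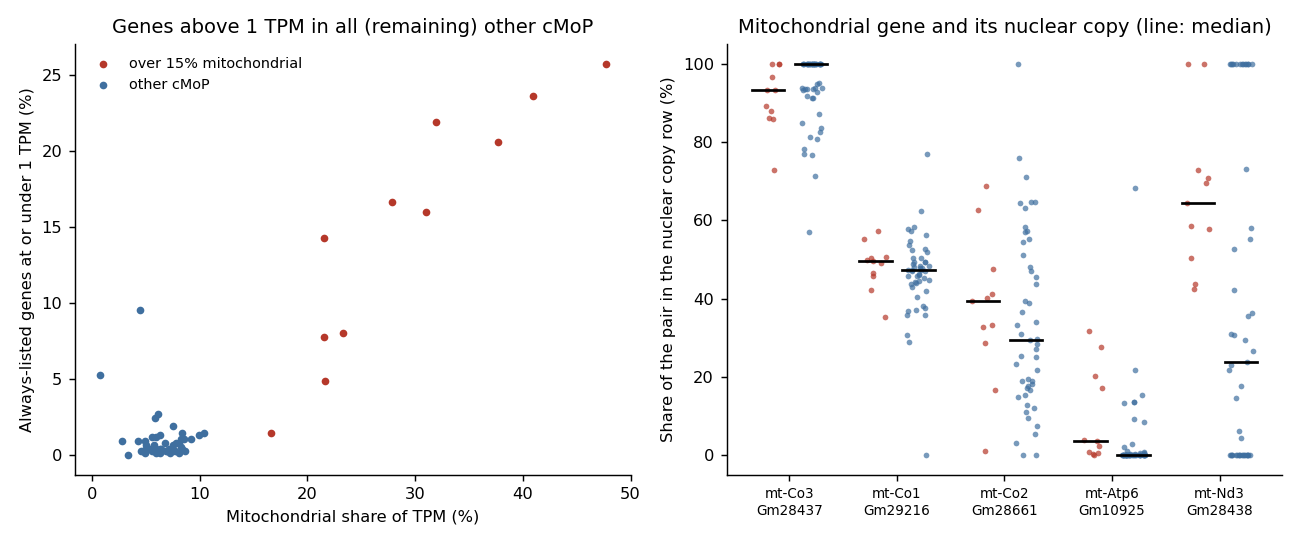
Left, for each cMoP library, the share of always-listed genes at or under 1 rescaled TPM (y axis, %) against its mitochondrial share (x axis, %); right, the share of each pair's summed TPM that is listed in the nuclear copy row (y axis, %) for 5 pairs, high-mitochondrial libraries (red) left of the other libraries (blue), with a line at the median. The high-mitochondrial libraries reach 25.8% of always-listed genes at or under 1 TPM, and mt-Co3 is listed mostly as Gm28437 in both groups.

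Within the mt- rows the classes of genes had close medians in both groups, while single rows differed more. The 13 protein genes made up a median of 67.2% of the mt- sum in the high-mitochondrial libraries against 68.2% in the other libraries, and the 2 ribosomal RNA genes 8.30% against 9.65%. The largest protein row was mt-Atp6, with a median of 19.7% against 18.3%. mt-Cytb, the cytochrome b gene of complex III, held 7.13% against 7.27%, and mt-Nd1, of complex I, held 5.88% against 6.22%. Some rows with a close nuclear copy differed more: mt-Co3 held a median of 1.83% against 0.0037%, mt-Nd4l 0.268% against 0%, and mt-Nd3 0.267% against 0.661%. Others with such a copy did not: beside mt-Atp6, mt-Co2 held 8.05% against 7.87% and mt-Co1 7.44% against 6.57%. The transfer RNA row mt-Te held 0.125% against 0.763%. For each of the 15 protein and ribosomal RNA rows the ranges of the groups overlapped.

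Nuclear transcripts were lower far more often than higher. Of 6821 nuclear genes above 1 TPM in at least 50% of the libraries of either group, 3371 (49.4%) were lower by at least 1 log2 unit in the high-mitochondrial libraries and 1246 (18.3%) were higher, with a median difference of -0.97. The balance depends on the scale: 26.99% of the genes past 1 log2 unit were higher on rescaled TPM, against 44.9% with median-ratio size factors, which moved the median of all genes to -0.27, and 48.2% on the log2 ratio of group means, with a median of -0.11. Counts and medians of gene groups below are therefore to be read against the median of all genes. Only 921 of the 3371 lower genes and 343 of the 1246 higher genes differed by more than the SD of both groups.

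The filter shapes these counts. Genes above 1 TPM in at least 50% of both groups numbered 3647, of which 1603 were lower and 694 higher, with a median of -0.71. A further 2137 genes passed only through the other libraries and 1037 only through the high-mitochondrial libraries, so their direction was largely fixed by the filter. No gene was lower in all 11 high-mitochondrial libraries than in all 49 other libraries (0.0% of 6821), and 2 genes (0.0293%) were higher in all 11: the mitochondrial copies Gm28437 and Gm29216. Both hold the sequence that chose the libraries, and every other measured gene overlapped between the groups.

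Transcripts abundant in the other libraries were lower more often than the rest. In the top 10% of genes by level in the other libraries, 602 of 683 were lower by at least 1 log2 unit and 12 were higher, with a median of -2.72. Only 27 of them lay within 0.5 of 0. Because these genes were chosen by their level in the other libraries alone, their differences are tilted towards negative values by construction. The median of this top 10% is printed again below beside some lists of abundant genes. No list was matched to it by level.

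The loss was patchy from library to library. A total of 757 genes were above 1 TPM in each of the 49 other libraries. Of these always-listed genes, between 11 (1.45%, cMoP 66) and 195 (25.8%, cMoP 33) were at or under 1 TPM in a given high-mitochondrial library, with a median of 121. When each other library was set against the remaining ones in the same way, between 0 and 80 genes were at or under 1, with a median of 3. No always-listed gene was at or under 1 in all 11 high-mitochondrial libraries, and 293 (38.7%) were above 1 in every one. The library cMoP 33 also had the highest mitochondrial share.

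Different high-mitochondrial libraries lacked partly different genes. Over the 110 ordered pairs of libraries, a median of 29.4% of the always-listed genes at or under 1 in one library were also at or under 1 in the other, with a range of 0.0% to 55.9%. These shares are limited by unequal numbers of such genes, from 11 in cMoP 66 to 195 in cMoP 33. Between the libraries with the most, cMoP 22 and cMoP 33, the shares were 45.3% and 41.5%. The SD over libraries of an always-listed gene had a median of 2.99 log2 units in the high-mitochondrial libraries against 0.98 in the other libraries, where the choice of these genes keeps the spread small. Over all measured genes the median SD was 2.55 against 2.27. Where such a gene was above 1 TPM in a high-mitochondrial library it was still lower, with a median log2 level relative to the other libraries' median of -0.40 in cMoP 66 to -2.79 in cMoP 22. The most often missing gene was Higd1a, which encodes a small inner-membrane protein of mitochondria: it was at or under 1 TPM in 10 of the 11 libraries and above 1 in all 49 others.

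**Figure D2:**
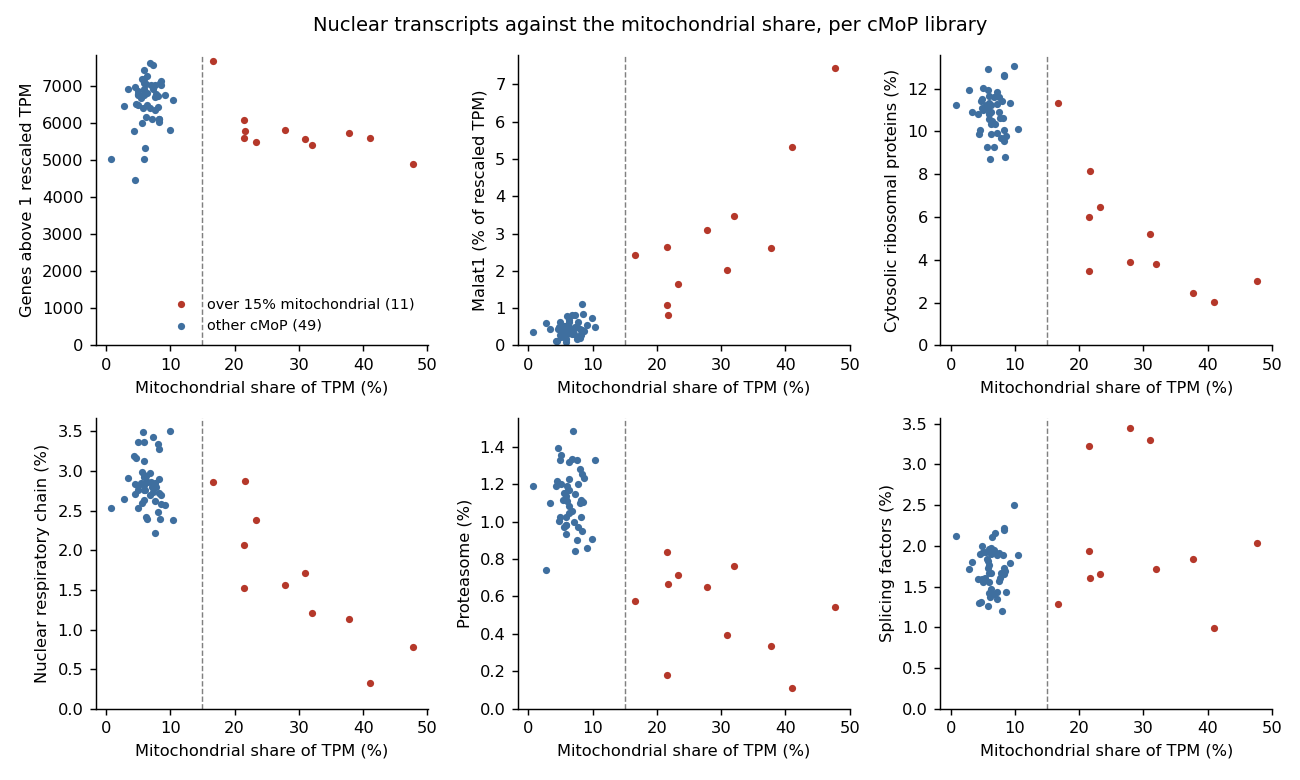
Each point is 1 cMoP library, high-mitochondrial in red and other in blue, with its mitochondrial share of TPM on the x axis (%) and, on the y axes, the number of genes above 1 rescaled TPM or the percent of rescaled TPM in Malat1 or in a gene list; the dashed line marks 15%. Malat1 reaches 7.43%, the ribosomal, respiratory and proteasome shares of most red points lie under the blue ones, and the splicing factor shares of the red points run from 0.993% to 3.45%, with 1 below and 3 above all blue points.

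Nuclear genes of the respiratory chain were among the most lowered groups, while the mitochondrial genes of the same complexes made the libraries stand out. Complex I, which takes electrons from NADH, had 36 of its 37 measured nuclear subunit genes lower by at least 1 log2 unit, with a median of -3.72. All 4 genes of complex II, all 10 of complex III and all 11 of complex IV were lower, with medians of -4.16, -3.61 and -2.99, and 15 of 16 of ATP synthase, with a median of -3.11. None of these genes was higher. The background over all measured genes was 49.4% lower with a median of -0.97, and the median over the top 10% by level was -2.72.

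Ndufa8, a complex I subunit, had 0, 0 and 161 TPM (lowest, median and highest) in the high-mitochondrial libraries, against 3.62, 144 and 485 TPM in the other libraries. Uqcrq, a complex III subunit, had 0, 9.49 and 1363 TPM against 236, 549 and 1616 TPM. Cox6a1, a complex IV subunit, had 0, 84.6 and 1592 TPM against 197, 987 and 1851 TPM. Ndufa8 was at or under 1 TPM in 8 of the 11 high-mitochondrial libraries, Uqcrq in 5 and Cox6a1 in 1. For each gene the highest library reached into the range of the other libraries. Ndufa8 passed the filter only through the other libraries, so its direction was largely fixed by the filter. Uqcrq was listed at 0 in 5 of 11 high-mitochondrial libraries and in 0 of 49 others, so its difference of -5.37 came with an SD of 4.12 over the high-mitochondrial libraries against 0.63 over the others.

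Because of those zeros the size depends on how libraries are averaged. On the log2 ratio of group means, the median of complex I was -1.11, of complex II -1.47, of complex III -1.12, of complex IV -0.92 and of ATP synthase -0.95, all still below the -0.11 of all genes. Sdhd, a membrane anchor of complex II, differed by -4.29 in the mean of logs and by 0.17 in the log2 ratio of means, since 1 library had 3316 TPM. Summed over the 5 complexes, the nuclear respiratory genes took 0.330% to 2.88% of rescaled TPM with a median of 1.57% in the high-mitochondrial libraries, against 2.22% to 3.51% with a median of 2.81% in the others. Of the 11 libraries, 8 lay below every other cMoP library.

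Genes that make or serve the organelle were also mostly lower. The citrate cycle, which feeds the chain with electrons, had 15 of 15 genes lower with a median of -3.38. Mdh2, its malate dehydrogenase, had 0, 5.07 and 1116 TPM in the high-mitochondrial libraries against 5.62, 787 and 1731 TPM in the other libraries. Of the mitochondrial ribosome 60 of 71 measured genes were lower with a median of -2.79, and of the import machinery and chaperones 25 of 28 with a median of -2.68. Genes for copying, transcribing and processing mitochondrial DNA and RNA were mixed: 8 of 17 were lower and 4 higher, beside 49.4% lower and 18.3% higher of all genes. Their median of -0.39 lies above that of all genes. Among the higher ones was Polrmt, the mitochondrial RNA polymerase, with 0, 41.9 and 565 TPM against 0, 0 and 350 TPM, a difference of 2.60 within SDs of 3.16 and 2.41. Polrmt was listed at 0 in 28 of the 49 other libraries. It passed the filter only through the high-mitochondrial libraries, so its direction was largely fixed by the filter.

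The machinery of protein synthesis and turnover was lower in most libraries. Of 82 cytosolic ribosomal protein genes 76 were lower and none higher, with a median of -2.34, against -2.72 for the top 10% of genes by level. Together they took 2.05% to 11.3% of rescaled TPM with a median of 3.88% in the high-mitochondrial libraries, against 8.70% to 13.04% with a median of 10.9% in the others. All high-mitochondrial libraries except cMoP 66 lay below every other cMoP library. Many ribosomal protein genes have near-identical processed pseudogenes, so the split between a gene and its copies is uncertain.

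Rps26, of the small ribosomal subunit, had 0, 44.4 and 1793 TPM in the high-mitochondrial libraries against 768, 1408 and 2367 TPM in the other libraries. Eif5a, a translation elongation factor, had 0, 323 and 1544 TPM against 1041, 2010 and 3740 TPM. Translation factors as a group had 38 of 39 genes lower, with a median of -2.50. The proteasome, which degrades ubiquitin-tagged proteins, had 32 of 33 genes lower and a median of -3.73, and a median of -1.24 on the ratio of means. Psmb6, a catalytic subunit of its core, had 0, 2.95 and 357 TPM against 39.6, 496 and 1733 TPM. In the library with the fewest, cMoP 33, 15 of the 33 proteasome genes were above 1 TPM, while the other libraries had 30 to 33.

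Glycolysis and protein folding gave the same direction. Of 15 glycolytic genes 13 were lower, with a median of -2.78. Aldoa, the aldolase, had 0, 68.0 and 365 TPM in the high-mitochondrial libraries against 277, 1161 and 2507 TPM in the other libraries. Of 44 genes of folding and translocation in the endoplasmic reticulum 36 were lower, with a median of -2.43, among them Ppib, a prolyl isomerase, with a difference of -4.52. Of 12 heat shock genes 9 were lower, with a median of -2.36, and none was higher.

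**Figure D3:**
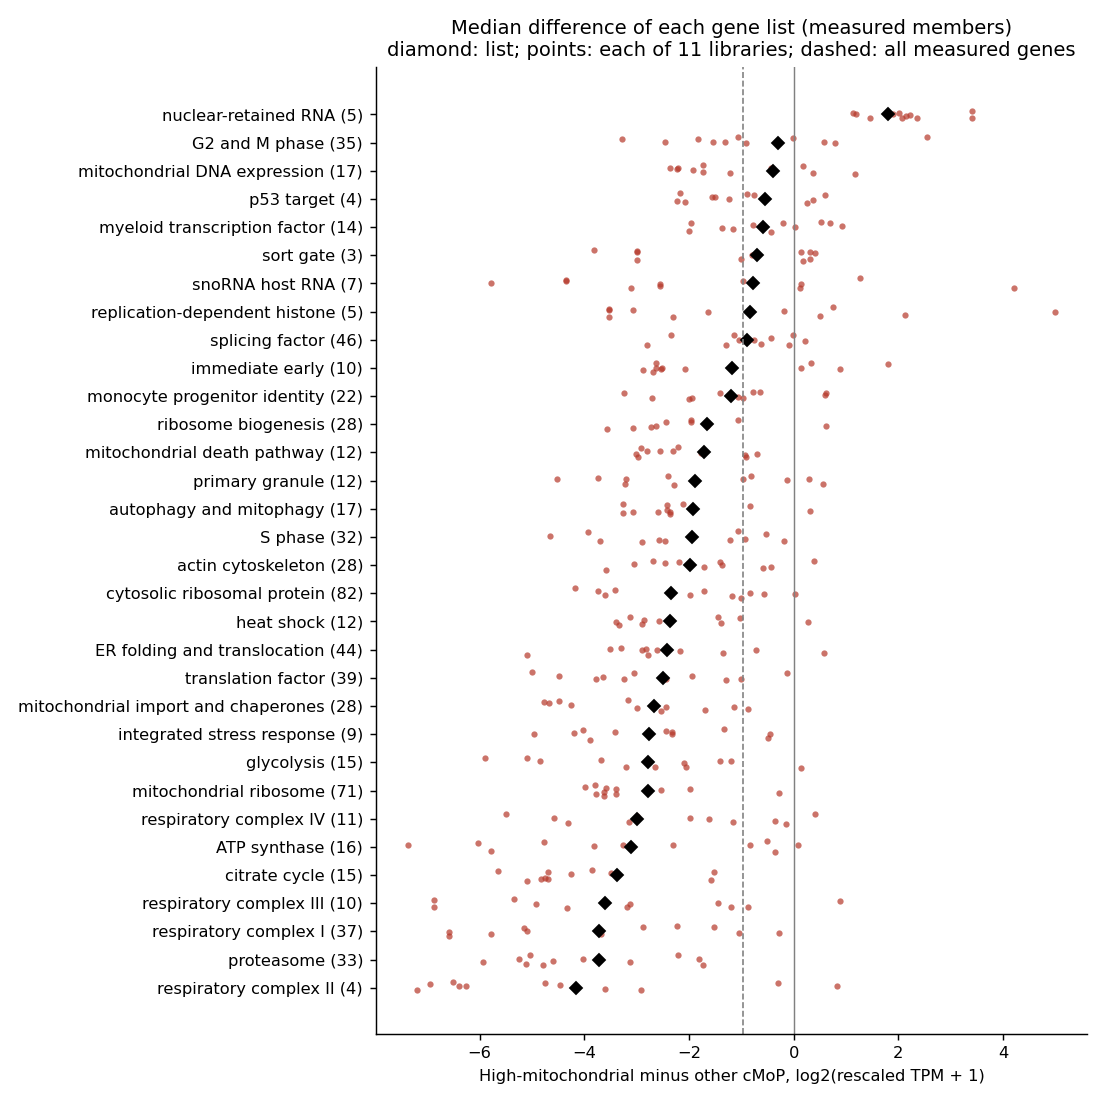
Median difference over the measured members of each gene list (number in brackets) between high-mitochondrial and other cMoP libraries on the x axis, in log2(rescaled TPM + 1); diamonds are lists, red points the same median in each of the 11 libraries, and the dashed line the median of all measured genes at -0.97. Nuclear-retained RNAs lie at 1.81 and complex II at -4.16, and in complex I the points run from -6.59 to -0.28.

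Stress and death lists are to be read against all measured genes, of which 49.4% were lower and 18.3% higher with a median of -0.97. The integrated stress response, the set induced when translation initiation is curbed, had 7 of 9 measured genes lower and 1 higher, with a median of -2.77. Atf4, its transcription factor, had 0, 0 and 190 TPM in the high-mitochondrial libraries against 0, 82.6 and 330 TPM in the other libraries. Of 12 measured genes of the mitochondrial death pathway 8 were lower and none higher, with a median of -1.71. Bax, which permeabilises the outer membrane, differed by -2.34. Atf4 and Bax were listed at 0 in 6 and 7 of the 11 libraries. Both passed the filter only through the other libraries, so their direction was largely fixed by it. Of 10 immediate early genes 7 were lower, with a median of -1.17, and of 4 measured p53 targets 2 were lower and 1 higher. Several of these lists held few measured genes. Of the remaining lists, ribosome biogenesis had 26 of 28 genes lower (median -1.65), the actin cytoskeleton 23 of 28 lower and 1 higher (-1.98), and autophagy and mitophagy 13 of 17 lower and 1 higher (-1.92). Host genes of snoRNAs had 3 of 7 lower (-0.78), and replication-dependent histones 2 of 5 lower and 1 higher (-0.84). The higher histone gene, Hist1h2bj, was listed at 0 in 30 of the 49 other libraries and passed the filter only through the high-mitochondrial ones.

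Noncoding RNAs that stay in the nucleus lay higher. Of 5 measured nuclear-retained RNAs 4 were higher by at least 1 log2 unit, with a median of 1.81, beside 18.3% of all genes higher and a median of -0.97. Only 3 of the 5 (Malat1, Kcnq1ot1 and Neat1) passed the filter in the other libraries. Airn and Ftx passed only through the high-mitochondrial libraries, so their direction was fixed by the filter, and the median is the value of Ftx. Malat1, an abundant RNA of nuclear speckles (chr19:5795690-5802672), had 8108, 26160 and 74301 TPM in the high-mitochondrial libraries, against 1057, 4212 and 11133 TPM in the other libraries. Of the 11 libraries, 9 lay above every other cMoP library. The difference was 2.65, with SDs of 0.92 and 0.75, and over the alternatives it ranged between 2.24 without rescaling and 3.64 with size factors.

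Kcnq1ot1, the antisense RNA of an imprinted cluster (chr7:143203458-143296549), had 17.3, 36.5 and 84.5 TPM in the high-mitochondrial libraries against 0.797, 6.93 and 33.02 TPM in the other libraries, a difference of 2.26. Airn, of another imprinted cluster, and Ftx, of the X inactivation centre, differed by 1.59 and 1.81. Neat1, the scaffold of paraspeckles, had 0.0892, 30.3 and 863 TPM against 0, 20.3 and 195 TPM, and its difference of 0.65 was smaller than the SD in either group. The other 5 listed RNAs (Xist, Tsix, Meg3, Miat and Firre) did not pass the filter in either group. The library kit does not mark strand, so for antisense RNAs such as Kcnq1ot1 and Airn reads of the overlapping gene cannot be told apart.

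By annotated type, lincRNA and antisense rows were more often higher and protein-coding rows more often lower. Of 185 measured lincRNA genes 112 were higher and 7 lower, with a median of 1.17, and of 130 antisense genes 78 were higher and 5 lower, with a median of 1.16. Of 5588 protein-coding genes 692 were higher and 3048 lower, with a median of -1.21. Among the 1037 genes of any type that passed the filter only through the high-mitochondrial libraries, 552 were higher and 1 lower. The types were not split in this way, so the filter may have fixed part of their higher counts. Protein-coding rows took 44.3% to 77.2% of rescaled TPM in the high-mitochondrial libraries against 82.0% to 88.4% in the other libraries, without overlap. That total still holds the mitochondrial-copy rows, which carry the sequence that chose the libraries. Unprocessed pseudogenes, the type of these copies, took 6.22% to 34.6% against 0.511% to 4.75%. The gap in protein-coding rows is therefore partly set by how the libraries were chosen. The lincRNA rows took 1.70% to 8.91% against 0.580% to 1.71%. The 63 rows of type miRNA, which in a poly(A) library stand for longer precursor or host RNA and not for mature miRNAs, were higher in 54 cases with a median of 2.44. Processed pseudogenes, which are copies of messenger RNAs, had 117 of 157 lower.

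A family of repeat-derived rows was also higher. Gm10800 (chr2:98666547-98667301, minus strand) and 12 further rows form 1 sequence family, and reads cannot be assigned within it with certainty. Each further row has at least 10% of its own 25-base words in Gm10800, on either strand. Of the 12 rows, 9 are protein-coding predictions at the start of chromosome 9. The capitals mark the 25 bases that 11 of the other rows hold as well.
Gm10800: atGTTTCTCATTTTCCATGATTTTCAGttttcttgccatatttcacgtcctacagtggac
Gm10800 had 639, 1551 and 9477 TPM in the high-mitochondrial libraries against 0, 94.0 and 1063 TPM in the other libraries. The 13 rows together took 0.125% to 1.66% of rescaled TPM against 0.0002% to 0.190%, and 9 of the 11 libraries lay above every other cMoP library. A high share of these rows also occurred outside the progenitors: 1 blood monocyte library had 16.5%.

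Among single named genes the 10 largest positive differences were at least 3.18. They were drawn from genes above 1 TPM in at least 50% of the high-mitochondrial libraries. Pax6, a transcription factor of eye and brain development, had 34.7, 124 and 569 TPM in the high-mitochondrial libraries against 0, 11.9 and 66.8 TPM in the other libraries. Nox4, an NADPH oxidase, had 1.59, 58.2 and 155 TPM against 0, 4.35 and 80.1 TPM, and Rai1, a chromatin-binding regulator, had 0, 59.5 and 604 TPM against 0, 0 and 55.9 TPM. For each of these 3 genes the ranges overlapped. The others were Smco1, Ppp2ca (the catalytic subunit of protein phosphatase 2A), Sun1 (an inner nuclear membrane protein), Ddx26b and the clone-named rows RP24-227F14.5, RP24-458F14.4 and RP23-255H8.1, which the annotation used here did not match.

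The 10 largest negative differences lay between -6.76 and -5.67. They were drawn from genes above 1 TPM in at least 50% of the other libraries. At least Gstp1, Atp6v1f, Ado, Vdac3, Fdps and Ndufa8 passed the filter only through the other libraries. The direction of such genes was largely fixed by the filter. Gstp1, a glutathione transferase, had 0, 0 and 402 TPM in the high-mitochondrial libraries against 0, 401 and 836 TPM in the other libraries, and was above 1 TPM in 2 of 11 against 48 of 49. Atp6v1f, a subunit of the vacuolar proton pump, had 0, 0 and 46.8 TPM against 8.85, 177 and 702 TPM. Ado, a thiol dioxygenase, was above 1 TPM in 1 of 11 libraries, against 45 of 49 with a median of 147 TPM. The remaining ones were Lgals9 (galectin-9), Vdac3 (an outer-membrane channel of mitochondria), Rqcd1, Cct7 (a chaperonin subunit), Mdh2, Fdps (an enzyme of isoprenoid synthesis) and Ndufa8. Rqcd1 differed by -5.83 in the mean of logs and by -1.84 in the log2 ratio of means.

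**Figure D4:**
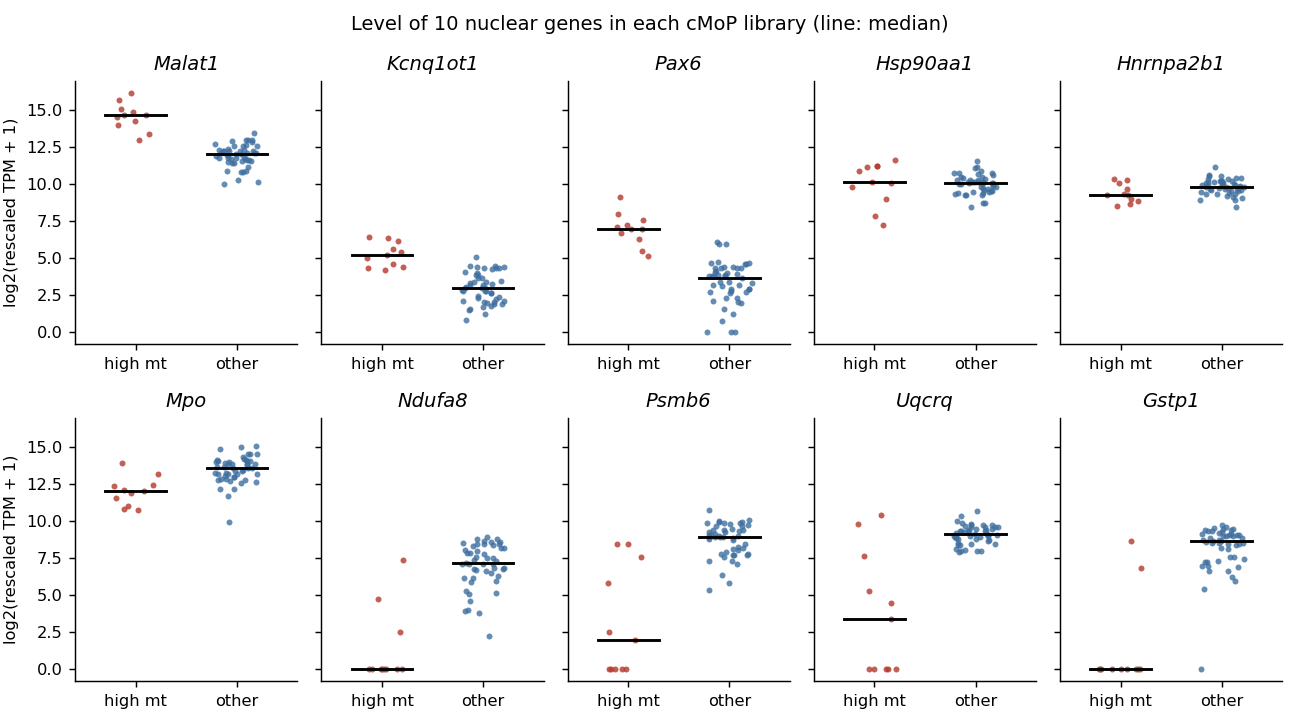
Level of 10 nuclear genes, in log2(rescaled TPM + 1) on the y axis, in each of the 11 high-mitochondrial libraries (red, left) and the 49 other cMoP libraries (blue, right), with a line at the median. Malat1, Kcnq1ot1 and Pax6 are shifted up, Hsp90aa1 and Hnrnpa2b1 have medians close to those of the blue points, and Ndufa8, Psmb6, Uqcrq and Gstp1 include red points at 0 beside red points at the height of the blue ones.

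Some abundant transcripts had close means in both groups on rescaled TPM. The 10 most abundant named genes within 0.5 of 0 lay between -0.48 and 0.23 on rescaled TPM, and between 0.50 and 1.21 with size factors, where each of them lay above the other libraries' mean, and between -0.39 and 1.75 on the ratio of means. Hnrnph1 depended most on the averaging, with -0.38 in the mean of logs, 1.75 on the ratio of means and -1.67 for group medians, and Dek differed by 1.14 on the ratio of means. Hsp90aa1, the inducible cytosolic Hsp90 chaperone, had 148, 1160 and 3190 TPM in the high-mitochondrial libraries against 354, 1082 and 3060 TPM in the other libraries. Hnrnpa2b1, an RNA-binding protein of the nucleus, had 371, 614 and 1343 TPM against 346, 921 and 2298 TPM, with an SD of 0.64 against 0.51. The rest were Tubb5 (a beta-tubulin), Hsp90b1 (the Hsp90 of the endoplasmic reticulum), Actr2 (a subunit of the Arp2/3 complex), H2afy (the histone macroH2A), Tra2b, Rbm25 and Hnrnph1 (splicing regulators) and Dek (a chromatin protein).

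Splicing factors as a list had a median near that of all genes, with a smaller part higher. Of 46 genes 21 were lower and 2 higher, beside 49.4% lower and 18.3% higher of all genes. The median was -0.89, beside -0.97 for all genes. The 46 genes took 0.993% to 3.45% of rescaled TPM in the high-mitochondrial libraries with a median of 1.84%, against 1.21% to 2.51% with a median of 1.72% in the other libraries. Of 24 always-listed splicing genes 21 were above 1 TPM in all 11 libraries, beside 293 of 757 always-listed genes in all. Within the list, Snrpd3 and Snrpd1, Sm proteins of the small nuclear ribonucleoproteins, differed by -4.84 and -4.56. Each was listed at 0 in 6 of the 11 libraries and passed the filter only through the other libraries. The 2 higher genes, Srsf6 and Tra2a, chosen after their values were seen, differed by 1.505 and 1.33. G2 and M phase genes had 15 of 35 lower and 5 higher, near the shares of all genes. Their median of -0.31 turned to 0.22 with size factors and 0.34 on the ratio of means. S phase genes had 27 of 32 lower, with a median of -1.94.

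Progenitor genes were listed in every high-mitochondrial library, at a lower median share. The identity list took 0.697% to 3.66% of rescaled TPM with a median of 1.18% in the high-mitochondrial libraries, against 0.627% to 6.68% with a median of 2.68% in the other libraries. Bone marrow monocytes of the series reached 1.07%, so the lowest libraries of both cMoP groups lay in the monocyte range. Ms4a3, the gene whose expression history the series traces, had 4.91, 530 and 1924 TPM in the high-mitochondrial libraries against 1.24, 668 and 3423 TPM in the other libraries. Mpo, the myeloperoxidase of primary granules, had 1753, 4213 and 15484 TPM against 965, 12350 and 34234 TPM. Elane, the neutrophil elastase, had 15.8, 1585 and 7566 TPM against 107, 5053 and 21859 TPM. Of 25 identity genes, 13 to 21 were above 1 TPM in a high-mitochondrial library, against 18 to 23 in the other libraries, and the library with 13 was cMoP 22. Every one of the 11 libraries was above 1 TPM for Ms4a3, Mpo, Elane, Prtn3 and Ctsg.

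On the log2 scale Mpo differed by -1.47 with SDs of 0.97 and 0.91, Elane by -1.83, Ms4a3 by -1.21, Prtn3 by -1.03 and Ctsg by -0.80. With size factors these were -0.49, -0.86, -0.25, -0.05 and 0.18, beside -0.27 for all genes. Over the 22 measured genes of the identity list 13 were lower and 2 higher, beside 49.4% lower and 18.3% higher of all genes. Their median was -1.19, beside -0.97 for all genes. Of 12 measured primary granule genes 11 were lower, with a median of -1.89. The granule share was 0.474% to 3.15% in the high-mitochondrial libraries against 0.357% to 7.05% in the other libraries.

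Transcription factors of the lineage were lower and higher about as often as all measured genes. Of 14 measured factors 6 were lower and 3 higher, beside 49.4% lower and 18.3% higher of all genes. Their median of -0.59 turned to 0.26 with size factors and 0.00 on the ratio of means. The medians of all genes were -0.97, -0.27 and -0.11. Zeb2, a repressor active in monocytes, had 30.4, 1154 and 2408 TPM in the high-mitochondrial libraries against 0.712, 166 and 632 TPM in the other libraries, a difference of 2.05. Irf8, a factor that directs the monocyte lineage and was chosen after its values were seen, had 11.9, 291 and 1866 TPM against 32.9, 323 and 964 TPM. Spi1, which encodes PU.1, was above 1 TPM in 5 of 11 libraries against 41 of 49.

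Of the genes behind the sort, Ly6c2 had 109, 3053 and 8102 TPM in the high-mitochondrial libraries against 1440, 6526 and 16773 TPM in the other libraries. Csf1r was above 1 TPM in 8 of 11 against 42 of 49, and Kit in 4 of 11 against 29 of 49, so the message of a gated receptor was often missing in both groups. Flt3, selected against by the gate, was above 1 TPM in 4 of 11 against 12 of 49, at up to 6.20 TPM in the high-mitochondrial libraries and up to 195 TPM in the other libraries. Its difference was 0.13 in the mean of logs and -1.44 on the ratio of means.

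Markers of other cell types varied widely between libraries of each group. Of 11 erythroid markers 6 were above 1 TPM in any high-mitochondrial library, with a summed level of 0 to 337 TPM, against 7 and 0 to 363 TPM in the other libraries. Of 8 T and NK cell markers 2 were above 1 in any high-mitochondrial library (0 to 161 TPM summed), against 3 in the others (0 to 46.3 TPM), and of 13 macrophage markers 4 (4.55 to 48.6 TPM) against 8 (1.33 to 442 TPM). B cell markers summed to 18.7 to 2212 TPM against 75.4 to 1868 TPM, and 4 of the 9 were at or under 1 in every library of each group. The 4 measured ones went both ways. Ighm, at a median of 108 against 802 TPM, and Cd79b differed by -2.41 and -3.08, and Ms4a1 and Ebf1 by 1.52 and 0.79. Ms4a1 and Ebf1 passed the filter only through the high-mitochondrial libraries. Neutrophil markers summed to 0 to 152 TPM with 8 of 11 at or under 1 in every high-mitochondrial library, against 0 to 938 TPM. Megakaryocyte, basophil and eosinophil markers had a median sum of 0 in both groups, and 1 high-mitochondrial library reached 2259 TPM over the 7 basophil and mast cell markers. Dendritic cell markers, some of which progenitors share, summed to 22.2 to 642 TPM against 5.95 to 458 TPM, with 2 of 5 measured markers lower and 2 higher. Markers of maturing monocytes had 7 of 9 measured genes lower and 1 higher, with a median of -1.52. The part of any of these in the differences above was not tested.

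Lower and kept transcripts differed in length. Of 5588 measured protein-coding genes 5557 had GENCODE vM21 transcripts to compare. Split into 5 equal bins by transcript length, the shortest genes (up to 1622 bases) had a median difference of -2.49 and 82.6% of them were lower. The longest (5030 bases and more) had a median of -0.10 and 27.6% of them were lower. The medians of the bins between were -1.61, -1.22 and -0.77, so the difference grew from bin to bin as transcripts became shorter.

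The trend held among abundant genes too. In the upper 25% of genes by level in the other libraries the shortest bin had a median of -3.22 and the longest -1.53. The span of the gene on the genome, introns included, gave a like series, with -2.14 for the shortest bin and -0.18 for the longest, and 3' untranslated regions one of -2.05 to -0.48. Transcript length and gene span are related. With 3 equal bins of each, among the shortest transcripts the median moved only between -2.30 and -1.71 from the shortest to the longest spans, while at the shortest spans it moved between -2.30 and -0.68 from the shortest to the longest transcripts. GC content had a smaller range, with -0.95 in the lowest bin and -1.42 in the highest.

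**Figure D5:**
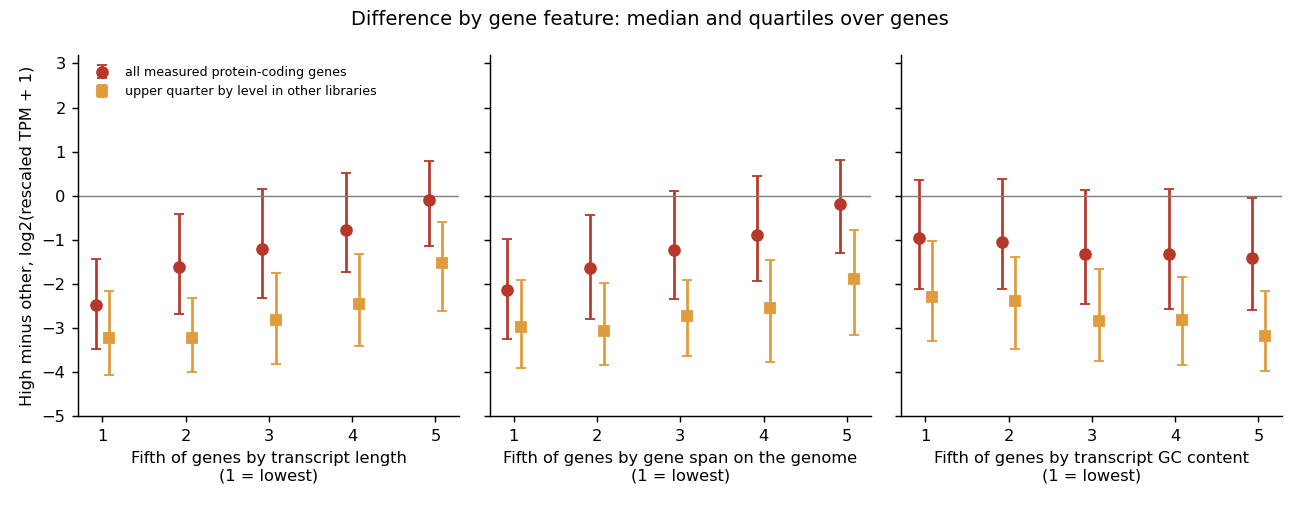
Median difference over genes, high-mitochondrial minus other cMoP libraries, in log2(rescaled TPM + 1) on the y axis, in 5 equal bins of transcript length, gene span and GC content; bars span the quartiles over genes, circles are all measured protein-coding genes and squares the upper 25% by level in the other libraries. The shortest transcripts lie at -2.49 and the longest at -0.10.

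A signal sequence gave no such series. Messages of secreted and membrane proteins are translated on the endoplasmic reticulum and most carry a hydrophobic stretch near the start of the protein. By the highest mean hydrophobicity of 9 residues within the first 30, the 5 bins had medians of -1.01, -1.12, -1.35, -1.35 and -1.19. The respiratory chain lists, at the low end of the differences, had median transcript lengths of 709 to 2066 bases, and the splicing factors 2744.5 bases, beside 2997 bases for the measured genes with a length. Length alone did not order the lists. Folding and translocation genes had a median of 2797.5 bases at a difference of -2.43, and S phase genes 3223 bases at -1.94. G2 and M phase genes had 3334 bases at -0.31.

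Within the 11 libraries some measures followed the mitochondrial share and others less so. This is a description over libraries that share 1 lane and a common total, and were chosen by that share. Spearman's rank correlation with the share was 0.65 for Malat1, 0.75 for the repeat rows, -0.71 for the number of genes, -0.75 for ribosomal protein genes and -0.79 for nuclear respiratory genes, and it was 0.05 for splicing factors. It was -0.51 for primary granule genes, -0.31 for the proteasome, -0.37 for G2 and M phase genes and -0.13 for S phase genes. Over the 49 other libraries it was 0.24 for Malat1, 0.18 for the repeat rows, 0.12 for the number of genes, -0.13 for ribosomal protein genes, -0.19 for nuclear respiratory genes and 0.11 for splicing factors. At the top of the range, cMoP 33 had 4881 genes above 1 TPM and 7.43% of rescaled TPM in Malat1. cMoP 22 had the lowest ribosomal protein share, at 2.05%, and the lowest nuclear respiratory share, at 0.330%. At the low end cMoP 66 had 2.42% in Malat1, above all 49 other cMoP libraries, while its ribosomal and respiratory shares of 11.3% and 2.86% lay inside their range.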

How the data were processed

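Single-cell mRNA of cMoP was measured on the C1 system. The deposited values are TPM, 1 column per library; per the submitters' processing notes the authors used RSEM 1.2.19 and build GRCm38. Neither aligner nor annotation is named (not given in the sources used here). TPM keeps no read depth, so depth is unknown. The table holds 43280 rows, 37 of them mt- rows, and 39374 symbols matched 1 GENCODE vM21 gene. Columns summed to 997939 to 999955.

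Without the mt- rows each library was rescaled to the same total. Differences are means of log2(rescaled TPM + 1), with a pseudocount of 1, over genes above 1 TPM in at least 50% of the libraries of either group. The rule for named genes took the 10 highest, the 10 lowest, the 10 most abundant within 0.5 of 0, up to 4 per list, the gate, nuclear-retained and 5 progenitor genes, and the mitochondrial rows. It left out predicted genes, ribosomal proteins and miRNA symbols from the extremes. The members, the lists and the rule were chosen with earlier results of these data known. Libraries cannot be shown to come from separate animals, so no test was run.

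Sequences, lengths and the N-terminal hydrophobicity come from GENCODE vM21 transcripts, translated from their coding parts; RefSeq proteins were not used here. Rows sharing at least 50% of 25-base words with mitochondrial protein or ribosomal RNA genes were called copies, and those sharing at least 10% with Gm10800 repeat rows. The code, in Python 3.11.15 with pandas 2.3.3, numpy 2.4.6 and matplotlib 3.10.9, was tested on simulated data with 200 altered genes. Alternatives varied scaling, pseudocount, averaging, filter, threshold, rows and libraries.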

Additional observations from a re-analysis of the deposited data

How the results depend on the processing

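The counts of lower and higher genes (3371 and 1246) came from 11 libraries against 49 with no depth known, and a 0 cannot be told from a failed estimate. With median-ratio size factors, based on 293 genes above 1 TPM in every library, 2580 genes were lower and 2105 higher. A pseudocount of 10 gave 2159 lower and 421 higher, the log2 ratio of group means 2084 lower and 1941 higher, and a filter over all 60 libraries together 786 higher. The cause of these shifts was not tested, except that the pseudocount and the mean of logs weigh low values by construction. Leaving out each high-mitochondrial library in turn gave 3285 to 3500 lower and 1294 to 1436 higher genes, and a gap in the median number of genes per library of -1147.5 to -1075. Thresholds of 10% (12 libraries) and 20% (10 libraries, without cMoP 66) gave 3283 and 3515 lower genes and 1222 and 1290 higher. The median of all genes was -1.23 without rescaling, -0.27 with size factors and -0.82 without the copy and repeat rows.

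On the log2 ratio of group means the sign turned for the immediate early list (0.0661) among lists at least 1 log2 unit from 0, for the snoRNA host (1.16), p53 target (1.22), histone (0.23), B cell (0.44) G2 and M phase (0.34) and myeloid transcription factor (0.00) lists nearer to 0, and, among named genes at least 1 log2 unit from 0, for Snhg4 (0.42), Snhg6 (1.68), Snhg1 (0.81), Sdhd (0.17), Cdca3 (0.0463), Btg2 (0.89), Cd79b (0.0132) and Tcf4 (0.64). Of the named genes nearer to 0, the sign also turned for Flt3 (-1.44), Hnrnph1 (1.75), Snhg5 (1.39), Hist1h1b (1.025) and Actr2 (0.33). The difference of group medians turned Fos to 0.15. With copy rows left out, the mitochondrial-copy list kept 1 measured gene at -3.68, which the rows left out explain. The filter over all libraries, the group medians, leaving out copy with repeat rows, and setting each other library against the rest were chosen after seeing the data. No paired analysis was possible because the replicate numbers only follow accession order and the groups come from 1 labelled population.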

Other observations

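The 6 cMoP libraries whose labels give no flow cell stood between the groups in some measures and outside both in others. Their mt- share was 4.47% to 11.1%, under the threshold, but the copy rows took 5.03% to 13.03% of rescaled TPM, above all 49 other cMoP libraries with a flow cell, whose highest value was 4.54%. With the copies counted, their mitochondrial share was 9.27% to 22.7%. They had 8738 to 9999 genes above 1 TPM, more than any library with a flow cell, and Malat1 at 0.557% to 0.976% of rescaled TPM. Within the 11 high-mitochondrial libraries the rank correlation of the mt- share was 0.93 with the copy rows and -0.71 with the number of genes.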
